A study of Mus musculus with 4 samples.

Results

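Sox4, Sox11 and Sox12, which form the SoxC group of SRY-related transcription factors, were described together with Sox9 and Sox13 in basal cells of the developing mouse prostate. The genes were chosen by symbol, and all 5 were found among the 49671 genes of the deposited table. The bulk RNA-seq data cover basal epithelial cells sorted from ventral prostate lobes of young males, in 2 tip libraries and 2 duct libraries. Lobes from 20 mice were chopped into tips and ducts. Cells bearing CD45, CD31 or CD140a, which mark leukocytes, endothelium and fibroblasts, were removed before basal cells were gated as high for EpCAM and CD49f. No genotype or treatment is named in the labels, so position is the one difference between tips and ducts that the labels state. Titles give postnatal day 13 and the age field days 10 to 12. The titles set the groups, since the cell type field calls every library tip. How many mice fed each library is not given, so p-values measure only the spread between these libraries, which may be technical.

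SOX proteins bind the minor groove of DNA through a conserved HMG box and bend it, and they usually act with partner transcription factors. SoxC proteins carry a transactivation domain at the C terminus and are known for survival and outgrowth of progenitors in embryonic mesenchyme and neural tissue. Sox9, a SoxE factor, marks distal progenitors in several branching organs, is needed for normal prostate budding, and drives cartilage differentiation. Sox13 is a SoxD factor, a group that lacks a known transactivation domain, and can bind TCF1, the product of Tcf7.

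The part of the coding sequence that the 5 genes share most is shown first, because near-identical sequence bears on how reads are assigned to a gene. It is a stretch of 90 bases that lies in the HMG box, taken from GENCODE M21 transcripts (GRCm38) and printed 5′ to 3′. Capitals mark the 50 positions at which all 5 genes have the same base.
Sox4: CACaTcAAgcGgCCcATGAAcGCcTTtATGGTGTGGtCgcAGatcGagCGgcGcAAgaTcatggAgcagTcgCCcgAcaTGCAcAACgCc
Sox11: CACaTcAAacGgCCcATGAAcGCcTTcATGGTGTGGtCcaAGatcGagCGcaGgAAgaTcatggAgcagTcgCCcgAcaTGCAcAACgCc
Sox12: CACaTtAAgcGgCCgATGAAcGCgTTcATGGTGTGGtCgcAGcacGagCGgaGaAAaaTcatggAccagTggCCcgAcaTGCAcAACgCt
Sox9: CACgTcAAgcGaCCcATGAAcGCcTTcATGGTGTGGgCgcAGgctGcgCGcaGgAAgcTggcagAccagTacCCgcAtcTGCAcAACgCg
Sox13: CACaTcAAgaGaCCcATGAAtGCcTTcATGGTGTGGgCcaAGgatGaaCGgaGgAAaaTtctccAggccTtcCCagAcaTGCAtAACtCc

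Within this stretch Sox4 and Sox11 shared 92.2% of bases, Sox4 and Sox12 86.7%, and Sox11 and Sox12 84.4%. Sox9 shared 72.2% to 74.4% with the SoxC genes, and Sox13 shared 68.9% to 74.4% with the other 4 genes. The longest run common to any pair of whole transcripts was 48 coding bases, between Sox4 and Sox11: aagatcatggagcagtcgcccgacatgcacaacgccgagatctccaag. No other pair shared more than 33 bases. The read length is not given in the sources used here, so whether single reads could fit both genes of a pair is not known.

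Each stretch lies in 1 coding exon. Sox4 lies on the minus strand of chromosome 13 at 28948919 to 28953713, with the stretch at chr13:28952761-28952850. Sox11 lies on the minus strand of chromosome 12 at 27334264 to 27342574, with the stretch at chr12:27342178-27342267. Sox12 lies on the minus strand of chromosome 2 at 152393611 to 152398063, with the stretch at chr2:152397495-152397584. Sox9 lies on the plus strand of chromosome 11 at 112782224 to 112787760, with the stretch at chr11:112782894-112782983. Sox13 lies on the minus strand of chromosome 1 at 133382303 to 133424377, with the stretch at chr1:133385485-133385574. Sox4 and Sox11 are annotated with a single exon, Sox9 with 3, and the printed Sox13 transcript with 13. Of the 5 genes only Sox4 overlaps annotated exons of another gene: Gm26735, on the opposite strand, covers 2616 of its bases. Gm26735 itself measured 0.65 CPM (reads per 1000000 reads of a library) in duct 1 and 0 in the other libraries. The strand setting of the counting is not given, so reads from that overlap could have been lost to Sox4.

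Recovered reads numbered 1439004 and 1742531 for the tips and 1568194 and 1517982 for the ducts, so that 1 read was worth 0.574 to 0.695 CPM and a count of 0 allows up to 1.72 to 2.08 CPM (3 reads). Basal markers were present in every library, with 11 of 11 tested and a summed level of 10755 and 10812 CPM at the tips against 6585 and 16668 CPM in the ducts. Fibroblast markers (17 of 17 tested, Pdgfra, which encodes the CD140a removed in the sort, among them) summed to 7104 and 14617 CPM at the tips and 3305 and 25179 CPM in the ducts. Endothelial markers (10 of 10) summed to 106.4 and 109.3 against 45.0 and 357.4 CPM, and immune markers (7 of 10) to 16.2 and 96.1 against 19.9 and 29.2 CPM. Luminal markers (12 of 12) summed to 961.4 and 1252 against 921.2 and 2304 CPM. The duct libraries thus stood at both ends for basal, fibroblast, endothelial and luminal markers. In bulk libraries fewer cells of a type and less RNA per cell cannot be told apart.

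With the deposited scaling none of the 5 genes separated tips from ducts. Sox9, the highest of the family per exon length, averaged 220 ± 116 CPM at the tips and 152 ± 19.9 CPM in the ducts (SD, n = 2 each). Sox4 averaged 48.7 ± 0.106 CPM at the tips and 50.6 ± 22.2 CPM in the ducts, and Sox11 53.8 ± 5.48 against 55.2 ± 3.11 CPM. Sox12 averaged 12.2 ± 1.45 against 9.68 ± 5.27 CPM, and Sox13 12.1 ± 2.37 against 13.1 ± 5.80 CPM. With that scaling groups overlapped for 5 of 5 genes, whereas they did not overlap for 39.7% of the 17865 genes tested. With TMM, median-ratio or quantile scaling, comparisons added after seeing the data, they overlapped for 4 of 5, and Sox11 was lower at both tips, as were 18% of all tested genes with TMM. In limma, a linear model fitted to all tested genes on the log2(CPM + 1) scale, 0 of 5 passed an adjusted p of 0.05 (Benjamini-Hochberg) and 0 of 5 had an unadjusted p under 0.05, which 7.42% of tested genes had in limma. Over all genes limma, edgeR and voom called 0% in either direction, with 1326, 1060 (5.93%) and 1187 (6.64%) genes at an unadjusted p under 0.05. DESeq2 called 2 genes, 0.0112% of those tested, both lower in tip, and had 416 (2.33%) at an unadjusted p under 0.05. These were Gbp2, an interferon-induced GTPase gene, with 16.7 and 15.5 against 66.35 and 121.9 CPM, and the insulin gene Ins2, which had reads in duct 2 alone (204.9 CPM). The smallest 2-sided p of an exact permutation of 2 libraries against 2 is 0.333.

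**Figure D1:**
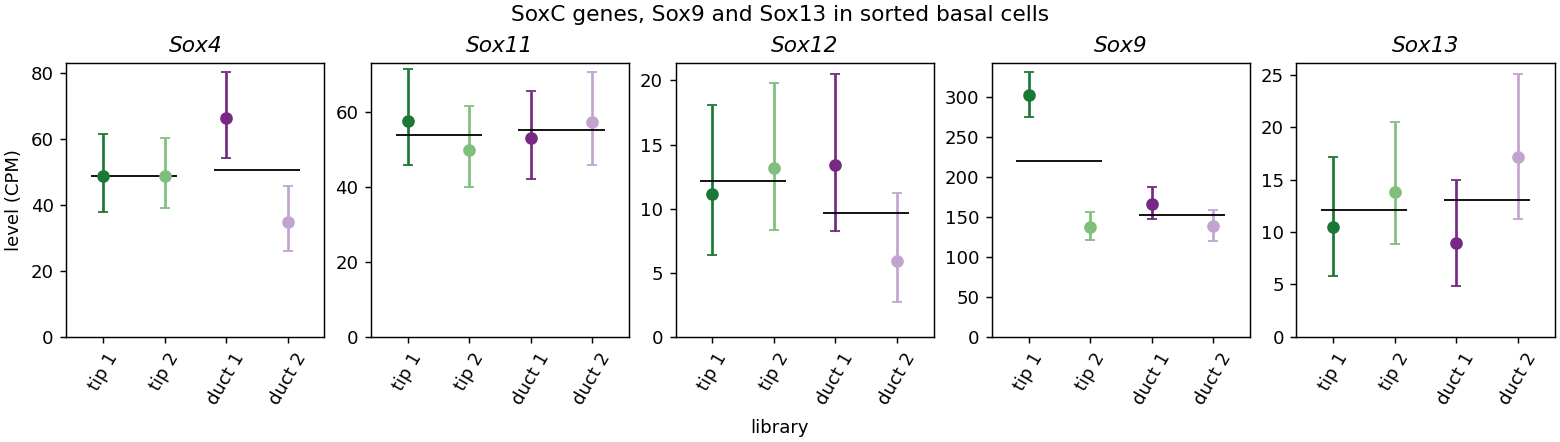
Level in CPM (vertical axes from 0) of Sox4, Sox11, Sox12, Sox9 and Sox13 in each of the 4 libraries, with 95% Poisson intervals that cover counting error only and black lines for the group means. Sox9 stands at 302 CPM in tip 1 and between 138 and 166 CPM elsewhere, Sox4 and Sox12 are lowest in duct 2, and Sox11 runs from 49.95 to 57.7 CPM.

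Sox4, the SoxC gene best known from lymphocyte, heart and carcinoma studies, measured 48.6 and 48.8 CPM at the tips and 66.4 and 35.0 CPM in the ducts. Both tips thus lay between the ducts. The log2 fold of tip over duct was 0.02 ± 0.38 (SE), with a 95% interval of -0.85 to 0.88 and an adjusted p of 0.996 in limma. That interval spans fold changes of 0.554 to 1.84 and is not adjusted for the number of genes tested. The smallest adjusted p of any gene in limma was 0.667, so differences beyond that span could also have gone uncalled. The direction depended on the scaling: with TMM factors the log2 fold was -0.18, while the median gene moved from 0.20 with the deposited scaling to 0.03.

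The 2 duct libraries differed from each other for Sox4 by more than counting error, with a ratio of 1.90 of duct 1 to duct 2 (95% exact interval 1.35 to 2.70). The tips had a ratio of 0.997 (0.716 to 1.38). Leaving out duct 1 gave a log2 fold of 0.47 and leaving out duct 2 gave -0.44. Sox4 was highest in duct 1 and lowest in duct 2, as were the summed basal markers (16668 and 6585 CPM). Dst made up a large part of that basal sum, with 7461 CPM in duct 1 and 3630 CPM in duct 2. The basal genes Trp63, Krt5 and Krt15 were highest in tip 1, and the other listed basal markers in duct 1. Summed fibroblast markers were lowest in duct 1 and highest in duct 2 (3305 and 25179 CPM). The part of these marker differences in the Sox4 values was not tested.

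Sox11, a SoxC gene prominent in embryonic neurons and mesenchyme, was the most even of the 5 genes. It measured 57.7 and 49.95 CPM at the tips and 53.0 and 57.4 CPM in the ducts, from 83, 87, 83 and 87 reads. All 4 values lay within the counting intervals of each other, and the highest exceeded the lowest 1.16-fold. The log2 fold was -0.04 ± 0.31 (95% interval -0.75 to 0.67, adjusted p = 0.987 in limma), which spans folds of 0.597 to 1.59. The SD of its log2(CPM + 1) over the 4 libraries was 0.098, against a median of 0.370 for the 6846 genes that averaged at least 20 CPM. Of those genes 2.56% had a smaller SD. With TMM scaling Sox11 measured 51.8 and 48.4 CPM at the tips and 55.5 and 62.9 CPM in the ducts, so that both tips lay below both ducts, as they also did with median-ratio and quantile scaling. The log2 fold was then -0.23 with TMM (adjusted p = 0.884 in limma), and 11.4% of genes had a smaller SD. Sox4 sat near that median (SD 0.370) and Sox9 above it (0.533).

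Sox12, the weakest activator of the SoxC group, measured 11.2 and 13.2 CPM at the tips and 13.4 and 5.95 CPM in the ducts. These values rest on 16 and 23 reads in tip and 21 and 9 in duct. Duct 2 was the low library and the other 3 lay close together. The ratio of duct 1 to duct 2 was 2.26 with an interval of 0.992 to 5.60, so this gap was not detectable beyond counting error. The log2 fold of tip over duct was 0.39 ± 0.53 (95% interval -0.81 to 1.60, adjusted p = 0.873 in limma). Without duct 2 it was -0.13.

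Within a library the make-up of the SoxC reads does not depend on scaling between libraries. Sox4 took 41.4% and 43.6% of these reads in tip and 50% and 35.6% in duct. Sox11 took 49.1% and 44.6% in tip and 39.9% and 58.4% in duct. Sox12 took 9.47% and 11.8% in tip and 10.1% and 6.04% in duct. For all 3 genes the tips lay between the ducts or overlapped them, and the exact (Clopper-Pearson) 95% intervals of the tips, such as 33.9% to 49.2% for Sox4 in tip 1, overlapped. Between the ducts the intervals did not meet for Sox11, with 33.2% to 46.9% in duct 1 and 50.04% to 66.4% in duct 2. The mean difference of tip minus duct was -0.28 percentage points for Sox4, -2.28 for Sox11 and 2.56 for Sox12, each from 149 to 208 SoxC reads a library.

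**Figure D2:**
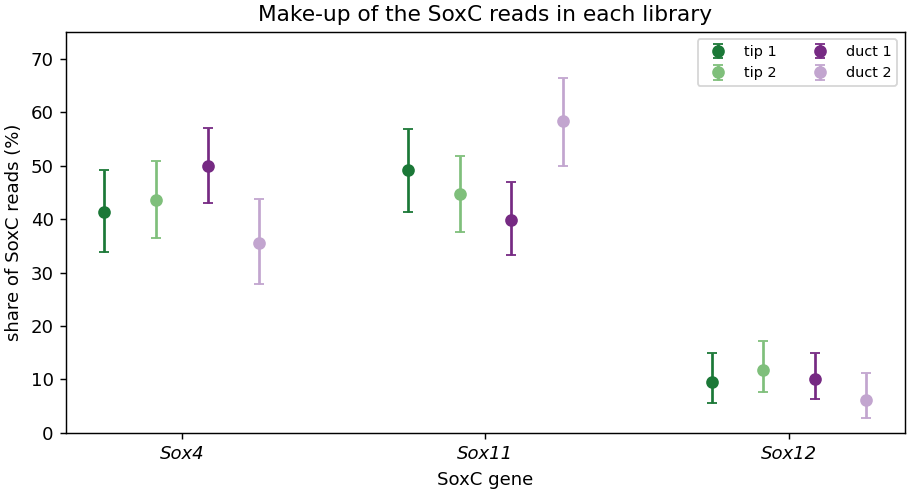
Share of each library's SoxC reads (vertical axis, percent) that came from Sox4, Sox11 and Sox12, with exact 95% binomial intervals that cover counting error only. The tip libraries lie close together, while duct 1 (Sox4 50%, Sox11 39.9%) and duct 2 (Sox4 35.6%, Sox11 58.4%) lie apart.

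Sox9 measured 302 and 138 CPM at the tips and 166 and 138 CPM in the ducts, from 435, 240, 261 and 210 reads. Tip 1 alone was high, and tip 2 was level with duct 2. The ratio of tip 1 to tip 2 was 2.19 (95% exact interval 1.87 to 2.58), beyond counting error. That of duct 1 to duct 2 was 1.20 (0.999 to 1.45). The log2 fold of tip over duct was 0.43 ± 0.39 (95% interval -0.48 to 1.33, adjusted p = 0.796 in limma), spanning folds of 0.719 to 2.51. Without tip 1 the log2 fold was -0.14, and without tip 2 it was 0.99.

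Tip 1 was the highest library for 11 of the 21 tested prostate epithelial transcription factors, a count made after the values were seen, and the lowest for 2, Klf5 and Ovol1. The share of all tested genes highest in tip 1 was not counted. Tip 1 had the largest TMM factor (1.11, against 1.03 in tip 2, 0.954 in duct 1 and 0.912 in duct 2). The deposited scaling thus places its values higher than TMM scaling does, for every gene. Trp63, which encodes the basal identity factor p63, measured 830 and 281 CPM at the tips and 263 and 136 CPM in the ducts. The 24 listed prostate epithelial transcription factors together reached 4966 and 3170 CPM at the tips and 3558 and 2136 CPM in the ducts. Immune markers were highest in tip 1 as well (96.1 CPM against 16.2 to 29.2 CPM), and their part in the Sox9 values was not tested. Sox9 per unit of Trp63, a ratio chosen after its values were seen, was 0.364 and 0.491 in tip and 0.632 and 1.02 in duct, lower in both tip libraries. Per unit of Krt5, the basal keratin, the ratios overlapped, at 0.465 and 0.268 in tip and 0.339 and 0.937 in duct.

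Sox13 measured 10.4 and 13.8 CPM at the tips and 8.95 and 17.2 CPM in the ducts, from 15, 24, 14 and 26 reads. The ducts again held both ends, but duct 2 was now the high one. The ratio of duct 1 to duct 2 was 0.521 (95% exact interval 0.252 to 1.04), not detectable beyond counting error. The log2 fold was -0.05 ± 0.50 (95% interval -1.18 to 1.09, adjusted p = 0.992 in limma). Its order over the libraries from high to low was duct 2, tip 2, tip 1 and duct 1. Summed fibroblast markers had the same order (25179, 14617, 7104 and 3305 CPM). Summed glial and neural markers had it too (350.8, 132.2, 99.5 and 50.55 CPM). The part of either marker list in the Sox13 values was not tested.

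**Figure D3:**
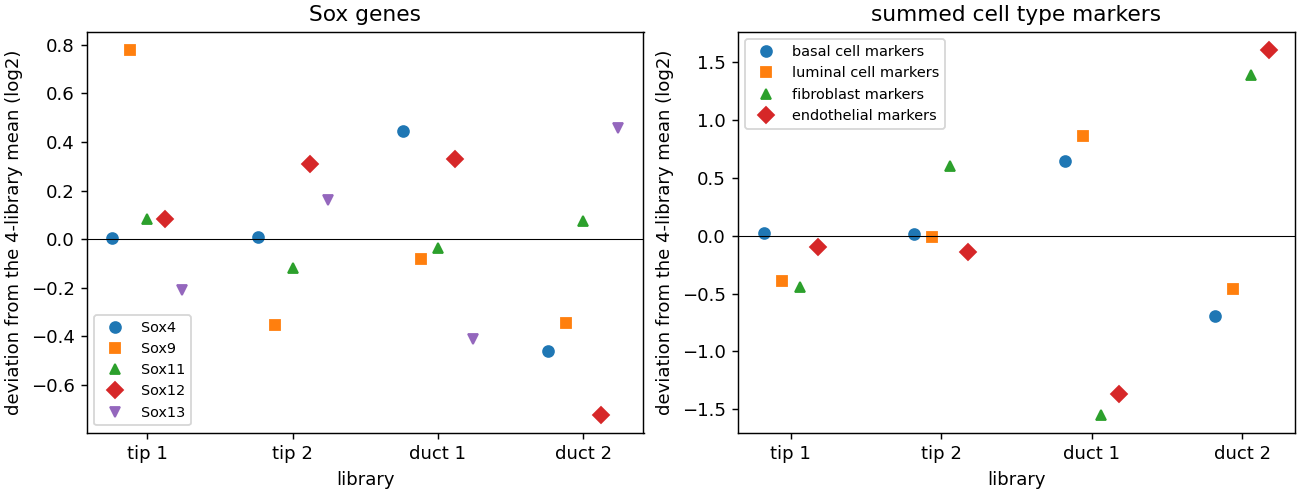
Deviation of each library from the 4-library mean of log2(CPM + 1), for the 5 Sox genes (left) and for summed markers of basal, luminal, fibroblast and endothelial cells (right, wider axis). Sox4 runs from 0.45 in duct 1 to -0.46 in duct 2, basal markers from 0.65 to -0.69, and fibroblast markers from -1.54 to 1.38.

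Levels between genes were compared per kb of annotated exon. Sox9 led the family with a mean of 45.0 CPM per kb over the 4 libraries and a range of 33.3 to 73.1. Sox4 followed at 10.4 CPM per kb (7.29 to 13.8), a range that did not meet that of Sox9. Sox11 stood at 6.56 CPM per kb (6.01 to 6.94), just under the lowest Sox4 value. Sox4 exceeded Sox11 per kb in 4 of 4 libraries, by 1.06-fold in duct 2 to 2.17-fold in duct 1. Sox13 at 2.92 (2.08 to 3.98) and Sox12 at 2.45 CPM per kb (1.34 to 3.01) had overlapping ranges. Sox9 exceeded Sox4 per kb by 7.21-fold and 3.27-fold in the tip libraries and by 2.91-fold and 4.59-fold in the duct libraries.

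Among the other 15 family members, 9 were tested and 4 had no read in any library (Sry, Sox3, Sox14 and Sox30), where a count of 0 allows the limits given above. Sox6, a SoxD partner of Sox9 in cartilage, had 7.76 CPM per kb, next after Sox4 in the family, and exceeded Sox13 in its own group by 1.15-fold to 5.05-fold. It measured 120 and 116 CPM at the tips and 156 and 67.9 CPM in the ducts, highest in duct 1 and lowest in duct 2 as Sox4 was. Sox2, a SoxB1 gene known from stem cells of many epithelia, measured 20.2 and 13.2 CPM at the tips and 17.9 and 11.2 CPM in the ducts. The per kb ranges of Sox4, Sox6 and Sox2 overlapped, so their order is not beyond the spread between libraries.

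**Figure D4:**
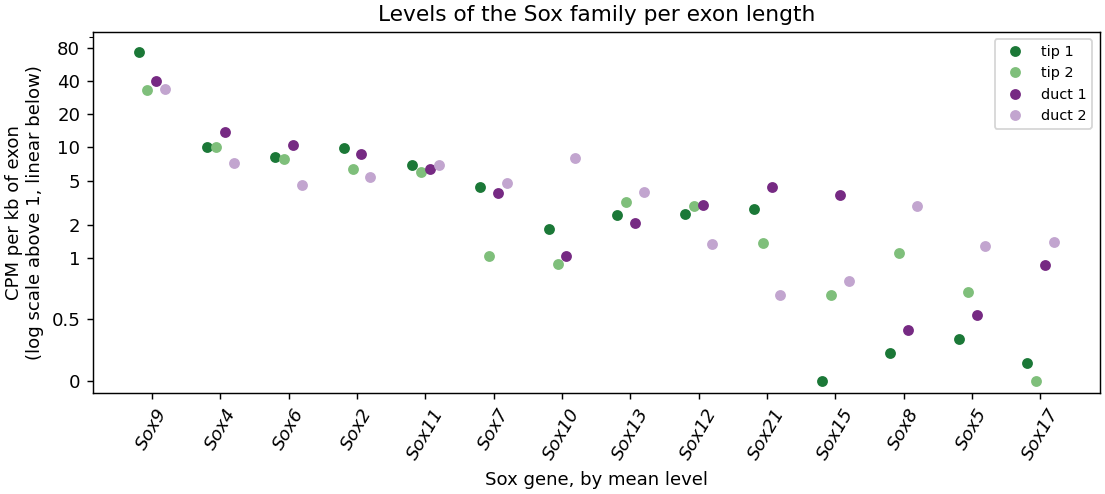
Level per exon length (CPM per kb, log scale above 1 and linear below) of the 14 tested Sox genes in each library, ordered by mean. Sox9 lies between 33.3 and 73.1 CPM per kb, above every other Sox gene in each library, and the points of Sox11 (6.01 to 6.94) lie closest together.

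Of the 9 other tested Sox genes, 2 had non-overlapping groups, Sox15 and Sox17, both lower in tip (11.1% of all tested genes were lower at both tips and 28.5% higher). Sox15, at 0 and 0.6 against 3.2 and 0.7 CPM, had a single read in tip 2 and in duct 2, so its groups were kept apart there by library depth. Sox17, an endothelial SoxF factor, had 1 and 0 reads in tip and 7 and 10 in duct, or 0.70 and 0 against 4.50 and 6.60 CPM, with an adjusted p of 0.667 in limma. Summed endothelial markers were lowest in duct 1 (45.0 CPM) and highest in duct 2 (357.4 CPM), and their part in the Sox17 values was not tested. Gm37587 overlaps 804 of the exonic bases of Sox17 on the opposite strand. Sox10, the SoxE gene of glia, measured 5.60 and 2.90 CPM at the tips and 3.2 and 24.4 CPM in the ducts. Glial and neural markers, a list that holds Sox10 itself, were likewise highest in duct 2 (350.8 CPM against 50.5 to 132.2 CPM). The median log2 fold of the 9 genes was -0.82, beside 0.20 for all tested genes, and 0 of 9 passed limma, edgeR or DESeq2.

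**Figure D5:**
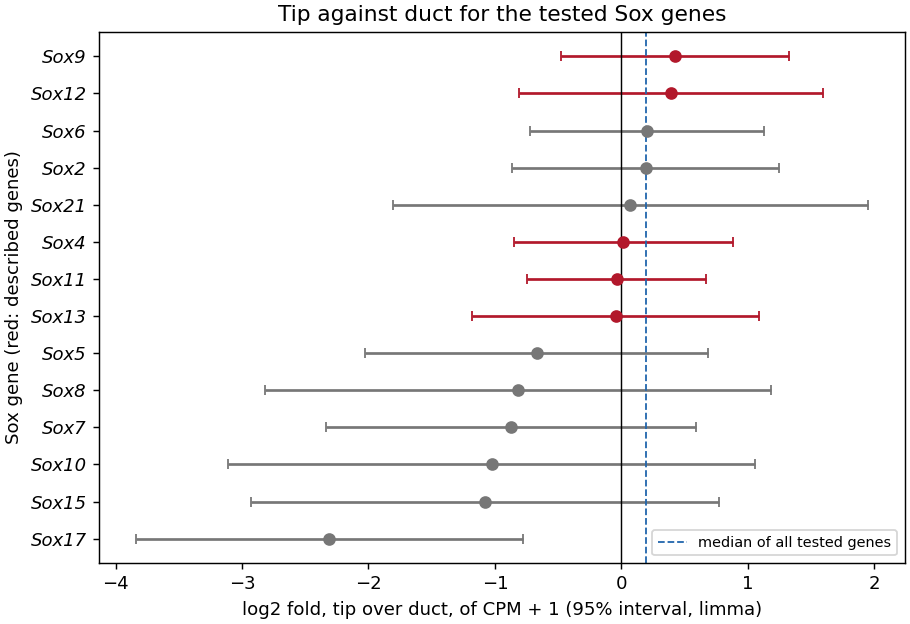
Log2 fold of tip over duct (horizontal axis, on log2(CPM + 1)) with 95% limma intervals for the 14 tested Sox genes, and the median of all tested genes (dashed, 0.20). The intervals of Sox9, Sox12, Sox4, Sox11 and Sox13 (red) all include 0.

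Genes known as SoxC targets in other tissues split in direction. Of 14 tested members, 5 stood higher and 2 lower at both tips, beside 28.5% and 11.1% of all tested genes. With TMM scaling these were 3 and 5, where 20.4% of all tested genes were higher and 18% lower. The median log2 fold was -0.11, and 0 passed limma, with 2 at an unadjusted p under 0.05. Sema3a, which encodes a secreted guidance cue, measured 98.0 and 65.4 CPM at the tips and 46.0 and 25.7 CPM in the ducts. Stmn1, a microtubule destabiliser, measured 24.4 and 25.3 against 15.4 and 5.95 CPM. Ptch1, the Hedgehog receptor, measured 166 and 241 against 100.2 and 150.2 CPM. Marcksl1, a regulator of cortical actin, was lower in both tips, at 89.0 and 81.5 against 118 and 109 CPM. Tead2, a DNA-binding partner of YAP, was low but counted among those higher at both tips, at 13.25 and 13.8 against 5.75 and 12.55 CPM.

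Cartilage matrix genes that Sox9 drives in chondrocytes ranged from no read in any library (Matn1) to a mean of 56.2 CPM (Col27a1), both named after their values were seen. Of 13 members found, 10 were tested, 1 stood higher and 0 lower at both tips, beside 28.5% and 11.1% of all tested genes, and 0 passed limma or had an unadjusted p under 0.05. With TMM scaling 1 stood higher and 2 lower, beside 20.4% and 18%. Col2a1, the classic Sox9 target, measured 0 and 0.60 CPM at the tips and 1.95 and 0 CPM in the ducts. Acan, the aggrecan gene, measured 10.4 and 16.6 against 12.2 and 4.65 CPM. Hapln1, a link protein gene, was the one higher in both tips, at 8.35 and 6.35 against 3.85 and 5.30 CPM. The median log2 fold was 0.33, beside 0.20 for all tested genes, and 0.17 beside 0.03 with TMM scaling.

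A list of TCF/LEF factors, beta-catenin and other Wnt pathway genes, among them Axin2, Nkd1, Lgr4 and Lgr5, mostly had positive folds. Of 16 tested members, 14 were positive (63.1% of all tested genes were), and 8 stood higher and 1 lower at both tips (28.5% and 11.1% of all tested genes). With TMM scaling these were 4 and 2 (20.4% and 18% of all). Their median log2 fold was 0.46, and 0 passed limma, with 2 at an unadjusted p under 0.05. Bcl9, a beta-catenin coactivator, measured 64.0 and 48.8 CPM at the tips and 25.6 and 29.6 CPM in the ducts. Nkd1, a feedback inhibitor of Wnt signalling, measured 40.4 and 36.8 against 11.5 and 23.8 CPM. Pygo1, which binds BCL9, measured 35.4 and 20.7 against 8.95 and 19.8 CPM. Tcf7, which encodes the Sox13 partner TCF1, was the lower one, at 19.5 and 20.7 against 34.4 and 23.8 CPM.

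Among genes that accompany Sox9 at the tips of branching organs, 17 were tested, of which 4 stood higher and 2 lower at both tips, near the 28.5% and 11.1% of all tested genes. With TMM scaling these were 2 and 3 (20.4% and 18% of all). The median log2 fold was 0.11 and 0 passed limma, with 2 at an unadjusted p under 0.05. Bmp7, a BMP ligand, measured 126 and 105 CPM at the tips and 59.4 and 36.9 CPM in the ducts. Spry1, an inhibitor of receptor tyrosine kinase signalling, measured 365 and 274 against 236 and 122 CPM. Etv4, an FGF-responsive ETS factor, measured 38.2 and 48.2 against 33.2 and 13.2 CPM. Spry4, at 87.6 and 95.3 against 149 and 128 CPM, and Myc, at 148 and 255 against 260 and 358 CPM, were lower in both tips. Mycn, a progenitor factor of lung buds, stayed at 1.40 to 2.65 CPM.

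Of 22 tested regulators and partners of SOX factors, 4 stood higher and 6 lower at both tips, beside 28.5% and 11.1% of all tested genes. With TMM scaling these were 1 and 10, beside 20.4% and 18%. Their median log2 fold was -0.04 and 0 passed limma. One had an unadjusted p under 0.05: Runx1, a transcription factor of blood and epithelium, with 308 and 387 CPM at the tips and 951 and 474 CPM in the ducts. Tgfbr2, a receptor of the TGF-beta pathway that induces Sox4, measured 147 and 185 against 264 and 210 CPM, and the pathway's effector Smad2 45.9 and 62.0 against 100.2 and 65.2 CPM. Fbxw7, which encodes the ubiquitin ligase subunit that targets SOX9, measured 87.6 and 63.8 against 56.2 and 42.8 CPM.

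Of 21 tested prostate epithelial transcription factors, 8 stood higher and 0 lower at both tips, beside 28.5% and 11.1% of all tested genes. With TMM scaling these were 5 and 1, the former near the 20.4% of all tested genes. The median log2 fold was 0.62, and 0 passed limma, with 3 at an unadjusted p under 0.05. Hoxb13, a homeobox gene of the posterior body and prostate, measured 48.6 and 18.4 CPM at the tips and 11.5 and 7.25 CPM in the ducts. Grhl2, a regulator of epithelial junctions, measured 147 and 88.4 against 63.2 and 33.0 CPM. For both genes tip 1 was the highest library, as it was for Sox9. Both were named because they stood higher at both tips, so their highest library had to be a tip.

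Proliferation genes stood higher at both tips for 9 of 14 tested and lower for 0, beside 28.5% and 11.1% of all tested genes. With TMM scaling these were 7 and 1, beside 20.4% and 18%. Their median log2 fold was 0.92 and 0 passed limma, with 4 at an unadjusted p under 0.05. Their summed level was 429.2 and 574.1 CPM at the tips and 238.8 and 346.9 CPM in the ducts.

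Genes with the most similar profile were sought by the root mean square difference of deviations over the 4 libraries, on the log2(CPM + 1) scale, among 6577 genes left at a mean of 20 CPM or more once the 5 Sox genes, predicted genes, pseudogenes and symbols shared by several identifiers were set aside. With so few libraries many genes come close. For Sox4 the nearest was Dph3 (difference 0.024), then Tubgcp3 (0.029) and Rnf149 (0.032). For Sox11 they were Rassf3 (0.013), Abhd16a (0.016) and Rspry1 (0.021), and for Sox12 Grpel2 (0.035), Lgals7 (0.037) and Slc2a4 (0.042). For Sox9 they were Lrrc47 (0.035), Milr1 (0.056) and Hist1h2be (0.078). Sox13 was nearest to Hspg2, the gene of the basement membrane proteoglycan perlecan (0.019, with 1157 and 1498 CPM at the tips and 1029 and 1888 CPM in the ducts), then Sipa1 (0.029) and Heatr3 (0.043).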

How the data were processed

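Per the labels' protocols, RNA came from a micro-scale column kit and libraries from Ovation SoLo, a low-input system. STAR, HTSeq and GRCm38 (mm10) are named, without versions, in the submitters' processing notes. As found from the values, the signal that the authors deposited holds reads per gene, scaled to 20000000 a library and rounded up. Dividing by 20 gave CPM. Values came out as whole reads, within 0.1 read, for 100% of values above 0, and rescaling gave back 99.95% to 99.97% of deposited values.

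Genes averaging at least 1 CPM were tested with limma 3.58.1 (R 4.3.3) on log2(CPM + 1), a scale that understates folds of low genes, with variance trend and robust moderation, 2-sided. edgeR 4.0.16 and DESeq2 1.42.0 on recovered reads, voom, 3 other scalings, 2 pseudocounts, 2 filters, a replicate block and leaving out each library were alternatives. Steps were tested on simulated reads. Intervals of levels, shares and ratios between libraries cover counting error only, whereas the limma intervals of log2 folds use the moderated spread between libraries. Exon lengths come from GENCODE M21. Members and gene lists were chosen with earlier results of these data known. Per list described, up to 3 genes a direction whose groups did not overlap, from 5 CPM up, were named by smallest p. One gene that this rule names is not reported here. Col2a1, Acan, Matn1, Col27a1, Klf5, Ovol1, Tead2, Mycn, Trp63, Gbp2 and Ins2 were added after their values were seen.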

Additional observations from a re-analysis of the deposited data

How the results depend on the processing

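Over 15 alternatives for each of the 5 genes, 63 of 75 log2 folds kept their direction, 12 reversed and 0 passed the threshold. The adjusted p ran from 0.648 to 1.00 for Sox4, 0.552 to 1.00 for Sox9, 0.863 to 1.00 for Sox11, 0.498 to 1.00 for Sox12 and 0.746 to 1.00 for Sox13. Sox4 reversed to -0.18 (TMM scaling), -0.22 (median-ratio) and -0.16 (quantile), -0.25 in edgeR and -0.28 in DESeq2. Leaving out one library gave log2 folds of -0.44 to 0.47 for Sox4, -0.14 to 0.99 for Sox9, -0.14 to 0.065 for Sox11, -0.13 to 0.92 for Sox12 and -0.48 to 0.39 for Sox13. Those reversed were Sox4 (-0.44), Sox11 (0.02), Sox12 (-0.13) and Sox13 (0.39) without duct 2, Sox9 (-0.14) and Sox13 (0.14) without tip 1, and Sox11 (0.065) without tip 2.

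Genes called higher and lower numbered 0 and 0, but 62 and 32 without the filter, 0 and 2 in DESeq2, 362 and 311 without duct 1, and 698 and 206 without duct 2. The lone library was then assumed to vary like the other group. Leaving out one library thus gave 0 to 698 higher and 0 to 311 lower. Genes higher in both tip libraries numbered 5099 (3394 with median-ratio scaling) and lower 1986 (3217 with TMM, 3457 with median-ratio scaling, 1190 among genes averaging 5 CPM or more). Non-overlapping groups were seen for 0 of the 5 Sox genes with the deposited scaling and 1 (Sox11) with each of the 3 others, and leaving out one library gave 2 to 3. For all tested genes that alternative, added after seeing the data, gave 6840 to 8595 higher and 3630 to 5056 lower, since fewer libraries overlap less. It moved the SoxC share differences to -7.50 to 6.93 percentage points for Sox4, -11.5 to 6.96 for Sox11 and 0.535 to 4.59 for Sox12. Tips and ducts share title numbers, but the labels do not say that a number marks a shared source. The sample descriptions number tip 2 and duct 2 differently. The tip and duct differences between numbers correlated at 0.150 across 17865 genes, which are not independent replicates. With the replicate block Sox9 stood at 0.43 (adjusted p = 0.695 in limma) and 0 genes were called. Causes were not tested. Sox12 and Sox13, at 9 to 26 reads a library, are limited by counting error.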
